A study of Mus musculus with 5 samples.

Results

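Oncofetal genes of the hepatoblast are genes that the embryonic liver transcribes, that hepatocytes largely silence after birth and that liver tumours often transcribe again. The set described here holds 10 genes chosen by symbol, Igf2bp1, Igf2bp2, Igf2bp3, Lin28b, Hmga2, Gpc3, Cdh17, Spink1, Mdk and Sox4, and all 10 were found among the 23022 genes of the authors' deposited table. The livers came from E18.5 mouse embryos, shortly before birth, and their poly(A) RNA was sequenced. For the 4N livers (3 libraries), Hhex knockout embryos, which lack a homeobox gene needed to form a liver, had been injected as blastocysts with td-Tomato positive tetraploid embryonic stem cells (4N-ESCs). The WT livers (2 libraries) came from ordinary embryos of that stage. Ploidy, the stem cell origin of the tissue, the Hhex genotype of the host and the blastocyst injection all differed between the groups at once and cannot be told apart. The labels do not say which cells of the host remained in a 4N liver, nor whether the embryos of a group came from separate litters, so p-values measure only the spread between these samples.

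The members belong to a few linked systems. LIN28B is an RNA-binding protein that blocks the maturation of let-7 microRNAs, and let-7 in turn represses mRNAs that carry matches to its seed, among them Lin28b itself, the chromatin architecture gene Hmga2 and the genes of the IGF2BP family. IGF2BP proteins bind mRNAs such as that of the growth factor IGF2 and influence their stability, location and translation. Glypican-3 (Gpc3) is a heparan sulfate proteoglycan on the surface of hepatoblasts, midkine (Mdk) a secreted heparin-binding growth factor, LI-cadherin (Cdh17) an adhesion protein best known from the intestine, SPINK1 a secreted trypsin inhibitor best known from the pancreas, and SOX4 a transcription factor of progenitor cells.

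The let-7 seed and its matches are shown because 5 of the 10 members and Trim71, whose change is given further on, carry them. Of 11 distinct mature let-7 family names in the RefSeq table (GRCm38.p6), 10 carried the same seed, bases 2 to 8, given in capitals in these 3 examples.
mmu-let-7a-5p: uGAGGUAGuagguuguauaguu
mmu-let-7g-5p: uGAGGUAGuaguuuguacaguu
mmu-miR-98-5p: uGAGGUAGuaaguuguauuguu
The complement of this seed, CTACCTC, or CTACCTCA in its longer form, was searched on the sense strand of the longest annotated 3′ UTR of each gene (GENCODE M21 transcripts). The members with a match are shown by 1 site each, with the matching letters in capitals, beside 1 site of Trim71, which encodes a stem cell ubiquitin ligase and RNA-binding protein.
Lin28b: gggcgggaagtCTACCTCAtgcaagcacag
Hmga2: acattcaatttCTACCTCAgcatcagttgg
Igf2bp1: tgcgaagtaaaCTACCTCAaggtgtgaagt
Igf2bp2: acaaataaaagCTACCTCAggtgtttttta
Igf2bp3: tttttactcaaCTACCTCAggtattcagta
Trim71: ttgcctaagtcCTACCTCAgcttaaatttt

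Lin28b, Hmga2 and Igf2bp1 each held 4 matches, and Igf2bp2 and Igf2bp3 held 1 each. Among 464 genes with a 3′ UTR within 20% of the length of that of Igf2bp1, 0.431% held as many, and the share was 0.283% for Lin28b and 0.165% for Hmga2. For Igf2bp2 and Igf2bp3, 12.4% and 13.7% of genes with a like 3′ UTR length held at least 1. Gpc3, Cdh17, Spink1, Mdk and Sox4 held none. MicroRNAs themselves were not measured by these libraries, and a match is a description of the transcript, not a site shown to be used.

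Of the members, 4 rose in 4N livers, none fell, and 6 did not pass the test, with the authors' scaling. Igf2bp2 and Spink1 were about 5-fold higher, Igf2bp1 about 2-fold higher and Sox4 less than 2-fold higher, whereas Lin28b and Igf2bp3 stood near equality. Recentred on erythroid markers, the most extreme scaling tried, Igf2bp1 and Sox4 turned negative (-0.31 and -0.71 on the log2 scale), and Igf2bp2 and Spink1 stayed positive. Called means an adjusted p under 0.05 by the authors' 2-sided Wald test, adjusted by the Benjamini-Hochberg method over all genes. With this rule 7.94% of all genes listed were called higher and 7.41% lower in 4N liver, and among the 8656 genes whose mean reached 1000 normalized counts these shares were 11.9% and 10.3%. All 4 calls fell among the 7 members with a mean of at least 1000. The median log2 fold change of the 10 members was 0.82, against 0.00 over all genes listed. Positive values mean higher in 4N.

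No values of single libraries were analysed here, so the levels below are fitted group means, computed from the mean and the fold change of the authors' deposited table. Whether single libraries of the 4N and WT groups overlapped could therefore not be examined, and the depth of each library is unknown. The table does not name the numerator of its fold changes. The direction was read from genes that had reads in one group only. Their log2 fold change exceeded the log2 of their mean by 3.15 for the 606 positive genes and by 3.81 for the 247 negative genes, whereas 3.18 would hold if only the 3 4N libraries had reads and 3.76 if only the 2 WT libraries had. In bulk tissue, fewer cells of a type and less RNA per cell cannot be told apart.

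**Figure D1:**
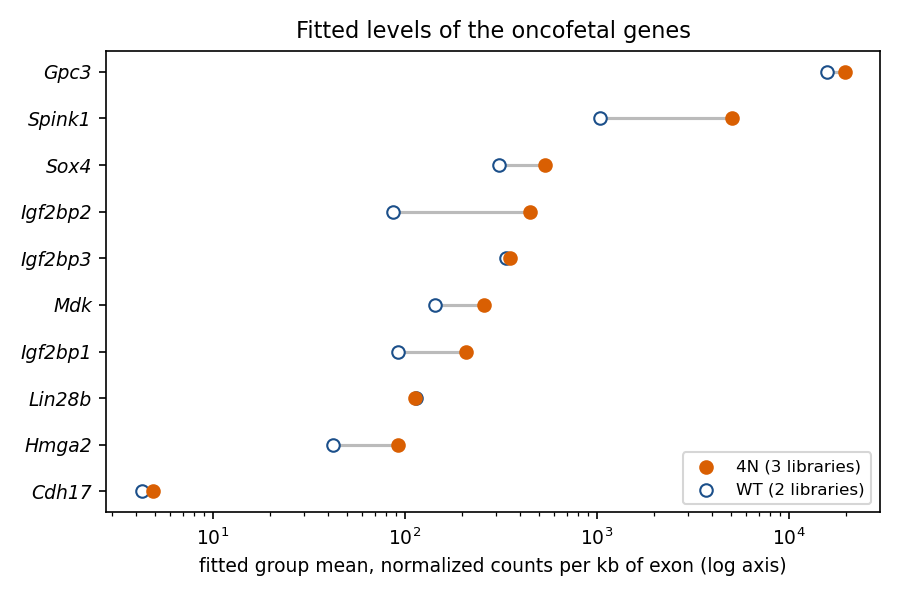
Fitted group means of the 10 oncofetal genes in normalized counts per kb of exon, on a log axis, for 4N (filled points, 3 libraries) and WT livers (open points, 2 libraries). Gpc3 lies far above the other members in both groups, and the widest gaps are those of Igf2bp2 and Spink1.

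Per kb of merged exon, the members spanned more than 3 orders of magnitude. Gpc3 had the highest level, 19576 normalized counts per kb in 4N livers and 15869 in WT livers, and Cdh17 the lowest, 4.87 in 4N and 4.27 in WT. In 4N livers Spink1 followed Gpc3 at 5082 per kb, before Sox4 at 539, Igf2bp2 at 448, Igf2bp3 at 352, Mdk at 260, Igf2bp1 at 210, Lin28b at 113 and Hmga2 at 92.8. In WT livers the order below Spink1 (1042 per kb) was Igf2bp3 at 337, Sox4 at 311, Mdk at 144, Lin28b at 115, Igf2bp1 at 92.1, Igf2bp2 at 87 and Hmga2 at 42.2. Igf2bp2 thus stood above Igf2bp3 and Igf2bp1 in 4N livers and below both in WT livers. Which neighbours in these orders differ beyond the spread of the libraries could not be examined.

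The 3 IGF2BP genes had unlike fold changes, and 2 of them passed the test. Igf2bp2 had a fitted mean of 3319 normalized counts in 4N livers and 644 in WT livers. The authors' deposited table put its log2 fold change at 2.37, with an SE of 0.27 and an adjusted p of 7.8e-16, which is 5.15-fold with a 95% interval of 3.55 to 7.48, and it stood at place 1368 of 23022 by log2 fold change. Igf2bp2 is the family member known to persist in some adult tissues, while Igf2bp1 and Igf2bp3 are mainly embryonic. Igf2bp1 had a fitted mean of 2031 in 4N livers and 892 in WT livers. It rose by 1.19 on the log2 scale, with an SE of 0.24 and an adjusted p of 1.7e-05 by the authors' deposited table, or 2.28-fold with a 95% interval of 1.65 to 3.15. An antisense gene that overlaps Igf2bp1 was not analysed here.

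Igf2bp3 was the most abundant of the 3 per kb in WT livers and did not pass the test. Its fitted means were 2873 in 4N livers and 2749 in WT livers, and its log2 fold change by the authors' deposited table was 0.06, with an SE of 0.25 and an adjusted p of 0.92. The 95% interval of its fold, 0.747 to 1.46, did not overlap those of Igf2bp1 and Igf2bp2. The differences between genes were not tested, since that needs values of single libraries. Of the summed per-kb level of the family, Igf2bp2 took 44.4% in 4N livers and 16.9% in WT livers, Igf2bp3 34.9% in 4N and 65.3% in WT, and Igf2bp1 20.8% in 4N and 17.8% in WT. The sum itself was 1010 per kb in 4N and 516 in WT, a ratio of 1.96. A processed pseudogene and the mitochondrial ribosome factor gene Malsu1 lie on the opposite strand within the bounds of Igf2bp3, and strand use in counting is not given in the sources used here. Malsu1 did not pass the test (-0.29 on the log2 scale, adjusted p = 0.49 by the authors' deposited table).

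The start regions of Igf2bp2 and Igf2bp3 are shown because these paralogs took different shares in the 2 groups. Both windows run from 250 bases before to 50 after the RefSeq start (GRCm38.p6, minus strand), at chr16:22163250-22163549 for Igf2bp2 and chr6:49214905-49215204 for Igf2bp3, with each CpG in capitals.
Igf2bp2: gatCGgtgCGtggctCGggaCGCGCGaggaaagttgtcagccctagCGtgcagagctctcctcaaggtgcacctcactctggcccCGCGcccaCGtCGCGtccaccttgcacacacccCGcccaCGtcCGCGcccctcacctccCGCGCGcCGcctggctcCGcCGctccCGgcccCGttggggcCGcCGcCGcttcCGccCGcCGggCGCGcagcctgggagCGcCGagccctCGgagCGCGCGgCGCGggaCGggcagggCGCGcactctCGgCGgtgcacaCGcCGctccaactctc
Igf2bp3: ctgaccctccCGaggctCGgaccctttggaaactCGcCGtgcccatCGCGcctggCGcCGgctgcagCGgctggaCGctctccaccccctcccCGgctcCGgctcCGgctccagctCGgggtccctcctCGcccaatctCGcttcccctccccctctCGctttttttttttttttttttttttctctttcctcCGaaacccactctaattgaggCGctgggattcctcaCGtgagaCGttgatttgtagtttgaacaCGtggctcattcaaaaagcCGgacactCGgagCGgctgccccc
Igf2bp2 held 47 CpG in its window and Igf2bp3 25. Of 32851 windows of the same length in the table, 1.44% held at least as many as Igf2bp2 and 18.4% at least as many as Igf2bp3. A window was given for 6 members, and the other 4 held 30 CpG for Gpc3, 12 for Hmga2, 12 for Sox4 and 8 for Lin28b, against a median of 7 over all windows. Methylation was not measured, and a relation between the number of CpG and the fold change was not tested.

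**Figure D2:**
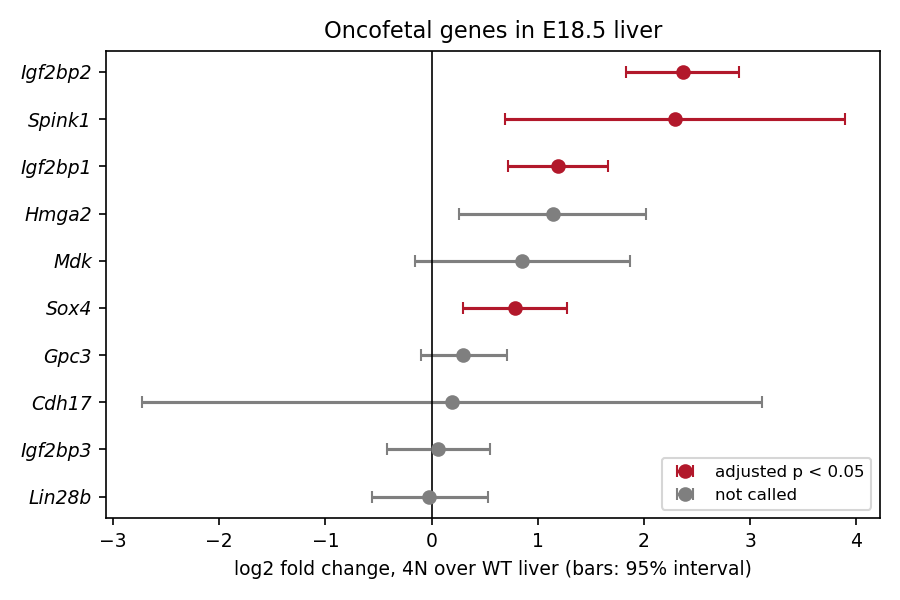
Log2 fold changes of 4N over WT liver for the 10 oncofetal genes, from the authors' deposited table, with 95% intervals computed from their standard errors and the authors' scaling. The 4 called genes, Igf2bp2, Spink1, Igf2bp1 and Sox4, are in red, and the interval of Hmga2 lies above 0 although its adjusted p of 0.067 did not pass.

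Lin28b, the upstream member of the let-7 system, had nearly the same fitted mean in both groups, 1027 in 4N livers and 1040 in WT livers. Its log2 fold change by the authors' deposited table was -0.02, with an SE of 0.28 and an adjusted p of 0.98. Its 95% interval, 0.677-fold to 1.44-fold, leaves out a 2-fold rise with the authors' scaling. Its paralog Lin28a had fitted levels of 109 normalized counts per kb in 4N livers and 86 in WT livers, beside 113 in 4N and 115 in WT for Lin28b, and did not pass (0.34 on the log2 scale with an SE of 0.31 by the authors' deposited table).

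Hmga2, a let-7 target whose product binds AT-rich DNA in embryonic and progenitor cells, had fitted means of 628 in 4N livers and 286 in WT livers. By the authors' deposited table its log2 fold change was 1.14 with an SE of 0.45, its unadjusted p 0.011 and its adjusted p 0.067, so it was not called. Its SE was larger than that of 91.2% of genes with a mean within 2-fold of its own. The antisense genes 1700006J14Rik and 9230105E05Rik overlap Hmga2 and were not called (adjusted p 0.51 and 0.26 by the authors' deposited table). Whether Hmga2 was called depended on the scaling. By the Wald test it passed at 1.22 on the log2 scale (adjusted p = 0.045) when the groups were set to equal sums without erythroid markers, and at 1.81 when values were recentred on secreted plasma proteins.

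Of 9 other HMG protein genes measured, 3 rose, none fell and 6 did not pass, with a median of -0.09. The share called higher was 33.3%, against 7.94% of all genes. Those that rose were Hmga1b (1.29, SE 0.40), the nucleosome binder gene Hmgn2 (0.85, SE 0.30) and Hmgb2 (0.55, SE 0.19), which is abundant in dividing cells, as log2 changes of the authors' deposited table. Hmga1, the paralog of Hmga2, did not pass (-0.43, adjusted p = 0.56 by the authors' deposited table), and Hmga1b is a near copy of it, so the split of reads between them is uncertain.

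Of 20 measured genes that work with LIN28 and let-7, 3 rose, none fell and 17 did not pass, with a median log2 fold change of 0.01. The called share of this list, 15%, was near the 15.3% of all genes called in either direction, though all its calls were rises, against 7.94% of all genes called higher. Trim71, itself a let-7 target that acts beside LIN28 in early embryos, had fitted means of 501 in 4N livers and 8.64 in WT livers. By the authors' deposited table it rose by 5.86 on the log2 scale (95% interval 4.82 to 6.89), with an adjusted p of 3.2e-26. Ago2, the argonaute protein that cuts or silences target mRNAs, rose by 1.24 (SE 0.27), and Msi2, an RNA-binding protein of progenitor cells, by 0.95 (SE 0.24), as log2 changes of the authors' deposited table. The terminal uridyl transferases Tut4 (0.12) and Tut7 (0.44), the exonuclease Dis3l2 (-0.33) and the processing enzymes Drosha (0.23) and Dicer1 (-0.36) did not pass, as log2 changes of the authors' deposited table, and were chosen for naming after their values were seen.

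Of 40 measured let-7 targets besides the members, 6 rose, none fell and 34 did not pass, with a median log2 fold change of 0.14. Their called share was also 15%, all of it higher. After Trim71, the smallest adjusted p-values were those of the cell cycle gene Ccnd1 (log2 fold change 1.35, SE 0.31) and the transcription factor gene Plagl2 (0.73, SE 0.19) by the authors' deposited table. Taken by letters alone, 1568 of 15489 measured genes with a 3′ UTR held at least 1 match. Of these, 11.6% rose and 7.84% fell, against 9.49% and 8.66% of the 13921 genes with none, and the medians were 0.04 with a match and 0.02 with none. The 199 genes with 2 or more matches had 9.05% higher, 12.1% lower and a median of -0.01. The 26 genes with 3 or more had 15.4% higher and 15.4% lower, and differences between these classes were not tested. Genes with a match have longer 3′ UTRs, with a median of 2298 bases against 996.

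Only 11 genes held 4 or more matches, and 3 of them were members. Igf2bp1 and Trim71 rose, and Trim6, Nudt12 and Zbtb37 fell. Trim6, a tripartite-motif ubiquitin ligase, stood at -1.95 (SE 0.37), Nudt12, a nucleotide pyrophosphatase, at -1.19 (SE 0.28) and Zbtb37 at -1.19 (SE 0.31), as log2 changes of the authors' deposited table. These genes were singled out after their values were seen. Nr6a1, a nuclear receptor gene with 8 matches, was not called (-0.70, adjusted p = 0.07 by the authors' deposited table). Genes rich in matches thus went in both directions.

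**Figure D3:**
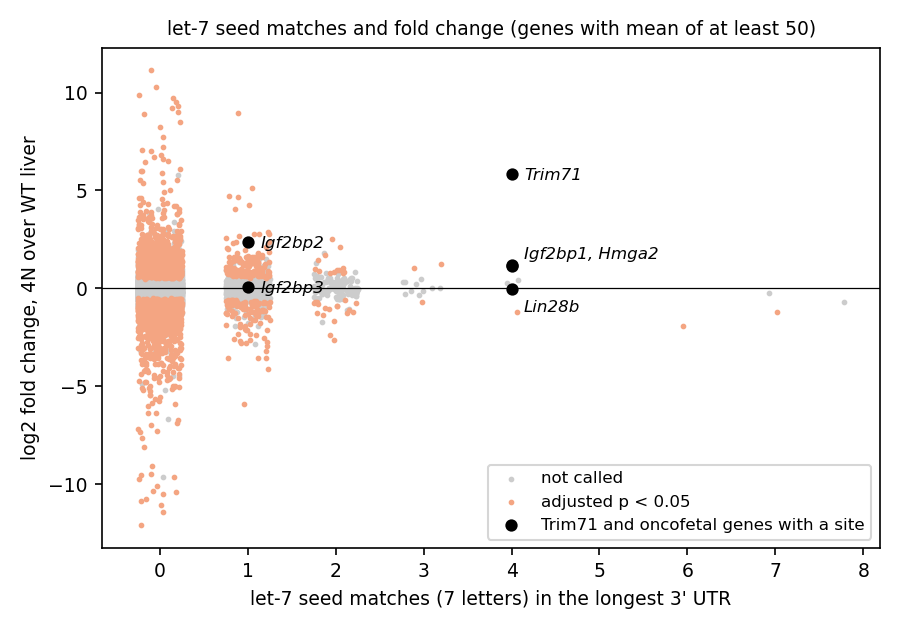
Log2 fold change of 4N over WT liver against the number of 7-letter let-7 seed matches in the longest 3′ UTR, for genes whose mean reached 50 normalized counts (points are spread sideways at random within a class). Igf2bp1, Hmga2, Lin28b and Trim71 all hold 4 matches, at log2 fold changes of 1.19, 1.14, -0.02 and 5.86.

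Of 15 transcripts described as bound by IGF2BP proteins, mostly in human cells, 4 rose, 1 fell and 10 did not pass, with a median of 0.39. These are 26.7% higher and 6.67% lower, against 7.94% and 7.41% of all genes. The glucose transporter gene Slc2a1 (2.66, SE 0.31), the hexokinase gene Hk2 (1.86, SE 0.26) and Ccnd1 (1.35, SE 0.31) had the smallest adjusted p-values among the rises, and the respiratory chain gene Cox7b fell by 1.46 (SE 0.22), as log2 changes of the authors' deposited table. Igf2, for which the family is named, did not pass, with fitted means of 13308 in 4N livers and 10189 in WT livers (0.39 on the log2 scale with an SE of 0.30 by the authors' deposited table). In the wider IGF system 4 of 23 genes rose (17.4%), 6 fell (26.1%) and 13 did not pass, with a median of 0.22. Igf2r, which clears IGF2, rose by 1.56 (SE 0.19), while the binding protein gene Igfbp2 fell by 4.68 (SE 0.36) and the hormone gene Igf1 by 2.61 (SE 0.30), as log2 changes of the authors' deposited table.

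Gpc3, by far the most abundant member, did not pass the test. Its fitted means were 52660 in 4N livers and 42689 in WT livers, and its log2 fold change by the authors' deposited table was 0.30, with an SE of 0.21 and an adjusted p of 0.38. The fold had a 95% interval of 0.933 to 1.63, which leaves out a 2-fold rise with the authors' scaling, and a change of 1.46-fold would have sufficed for a call at this SE. The antisense genes Gm14582 and A630012P03Rik overlap Gpc3 at means of only 6.28 and 7.92 normalized counts in the authors' deposited table. Gpc4, a related glypican, fell (-1.27 on the log2 scale, adjusted p = 0.0095 by the authors' deposited table), with fitted means of 1806 in 4N and 4347 in WT livers. Gpc1, Gpc2 and Gpc6 did not pass, at log2 changes of 0.25, 0.51 and 0.43 by the authors' deposited table. Among 23 measured glypican, syndecan and heparan sulfate genes, 1 rose, 5 fell and 17 did not pass, with a median of 0.09. These are 4.35% higher and 21.7% lower, against 7.94% and 7.41% of all genes. The syndecan gene Sdc1, a hepatocyte surface proteoglycan, fell by 2.17 (SE 0.22), and Sulf2, which removes sulfate groups from heparan sulfate, by 2.59 (SE 0.36), as log2 changes of the authors' deposited table. The deacylase gene Notum, which releases glypicans from the membrane and inactivates WNT proteins, fell too, and Hspg2, the core protein of basement membrane perlecan, rose (log2 changes of -3.33 and 1.03 by the authors' deposited table).

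Mdk was low and its fold change imprecise. Fitted means were 344 in 4N livers and 190 in WT livers, with a log2 change of 0.85, an SE of 0.52 and an adjusted p of 0.30 by the authors' deposited table, and a 95% interval of 0.895-fold to 3.65-fold. Only a change of at least 2.6-fold would have been called at this SE. Ptn, which encodes pleiotrophin, the only close relative of midkine, had fitted levels of 111 normalized counts per kb in 4N livers and 31 in WT livers, below the 260 in 4N and 144 in WT of Mdk. It rose by 1.84 on the log2 scale (SE 0.40) by the authors' deposited table. Of 19 measured ligands and receptors of the pair, 3 rose, 1 fell and 15 did not pass, with a median of 0.13. These are 15.8% higher and 5.26% lower, against 7.94% and 7.41% of all genes. Among the receptors Lrp2 (2.15, SE 0.73) and the integrin gene Itga4 (0.76, SE 0.28) rose and Sdc1 fell, while the kinase receptor gene Alk and the phosphatase receptor gene Ptprz1 had means of 6.91 and 7.56 normalized counts and did not pass, all by the authors' deposited table.

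Sox4 rose moderately. It had fitted means of 2583 in 4N livers and 1494 in WT livers, and its log2 change was 0.79, with an SE of 0.25 and an adjusted p of 0.014 by the authors' deposited table, or 1.73-fold with a 95% interval of 1.23 to 2.43. A noncoding gene on the opposite strand overlaps it and was not analysed here. The other genes of its SoxC group did not pass, with log2 changes of 0.58 (SE 0.41) for Sox11 and -0.11 (SE 0.31) for Sox12 by the authors' deposited table. Of 11 other Sox genes measured, 1 rose, none fell and 10 did not pass, with a median of 0.58. The share called higher, 9.09%, was near the 7.94% of all genes. The riser was Sox6, a regulator of red cell development (1.06, SE 0.24, by the authors' deposited table). Sox9, a marker of biliary precursors, stood at 0.89, with an adjusted p of 0.052 by the authors' deposited table.

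Spink1 was the second member with a high fold change, and the least precise of the abundant ones. Fitted means were 3705 in 4N livers and 760 in WT livers. The authors' deposited table put its log2 fold change at 2.29, with an SE of 0.82 and an adjusted p of 0.036, and the 95% interval ran from 1.61-fold to 14.8-fold. Its SE exceeded that of 99.4% of the 5201 genes with a mean within 2-fold of its own, whose median SE was 0.24. Values of single libraries, which would show where this spread lies, were not analysed here.

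Other genes of pancreatic digestion went both ways. Of 15 measured genes among other Spink inhibitors, digestive enzymes and EGFR, 4 rose, 3 fell and 8 did not pass. These are 26.7% higher and 20% lower, against 7.94% and 7.41% of all genes, and 7 of the 15 had no reads in one group. The lipase-related gene Pnliprp1 rose (log2 change 5.97, SE 0.81, by the authors' deposited table), and Pnliprp2 and the colipase gene Clps rose with no reads in WT livers and fitted means of 139 and 75.6 in 4N livers. The amylase gene Amy1 and Egfr fell (log2 changes of -1.73 and -1.01 by the authors' deposited table). Of the defining markers of pancreas, the carboxypeptidase gene Cpa1 had fitted means of 32.3 in 4N and 6.95 in WT livers, the elastase gene Cela1 769 in 4N and 647 in WT, and the transcription factor gene Pdx1 4.03 in 4N and 4.39 in WT, none of them called. Prss1, Ptf1a, Ins1, Ins2 and Gcg were not analysed here. Only 9 of the 17 pancreas and gut markers chosen, and 15 of the 33 Spink and digestive genes, were among the genes measured. Pancreas and gut markers took 0.0117% of the summed fitted means in 4N and 0.0179% in WT, with 1 of 9 higher and 2 lower. These shares rest mostly on gut genes, such as Tff3 with fitted means of 4598 in 4N and 6559 in WT. Pnliprp1, Pnliprp2 and Clps are not in this list, so its shares do not describe pancreatic genes alone. The part of pancreas and gut cells in the Spink1 result was not tested.

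Cdh17 was too low for a statement on its change. It had fitted means of 21.8 in 4N livers and 19.1 in WT livers, and the authors' deposited table put its log2 fold change at 0.19 with an SE of 1.49. The 95% interval ran from 0.151-fold to 8.61-fold, so that only a change of at least 15.6-fold would have been called. Its closest relative Cdh16 had a mean of 15.8 normalized counts and was not called (adjusted p = 0.59 by the authors' deposited table). Among 15 measured cadherins and cadherin-related genes 2 rose, 1 fell and 12 did not pass, with a median of 0.31. These are 13.3% higher and 6.67% lower, against 7.94% and 7.41% of all genes. Cdh11, of mesenchymal cells, and the placental cadherin Cdh3 rose (1.73 and 2.05), Cdh4 fell (-1.53), and the epithelial cadherin Cdh1 did not pass (-0.31, adjusted p = 0.34), as log2 changes of the authors' deposited table.

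**Figure D4:**
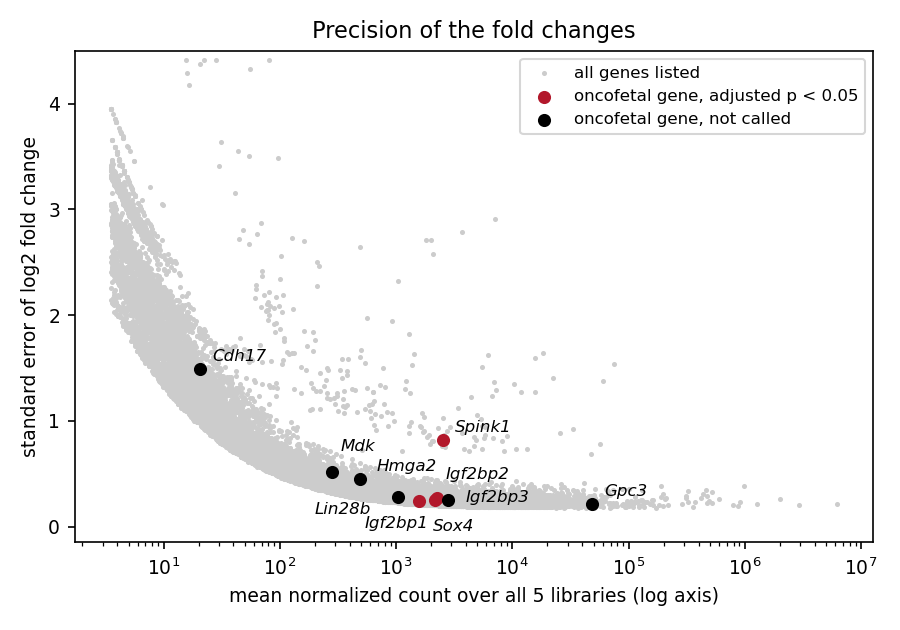
Standard error of the log2 fold change against the mean normalized count (log axis) in the authors' deposited table, for all genes listed (grey) and the 10 oncofetal genes (red where called, black where not). Spink1 lies far above genes of its abundance, and Cdh17 in the range of low counts.

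The 6 members that were not called differed in precision. With the authors' scaling, the 95% intervals of Lin28b, Igf2bp3 and Gpc3 left out a 2-fold rise, whereas those of Hmga2, Mdk and Cdh17 held one. Recentred on secreted plasma proteins, none of the 3 intervals left out a 2-fold rise, with upper bounds of 1.22 for Igf2bp3 and 1.38 for Gpc3 on the log2 scale, and Lin28b, Igf2bp3 and Gpc3 were called higher. A p above the threshold does not show that these genes are equal in both groups.

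Other fetal and oncofetal genes of the liver rose more often than they fell. Of 42 measured besides the members, 17 rose, 4 fell and 21 did not pass, with a median of 0.40. These are 40.5% higher and 9.52% lower, against 7.94% and 7.41% of all genes. The smallest adjusted p-values among the rises belonged to Dlk1, a surface protein of hepatoblasts (3.04, SE 0.23), Trim71 and Hk2, and among the falls to the imprinted Peg3 (-0.75, SE 0.22), Gpc4 and the aldose reductase relative Akr1b7 (-1.08, SE 0.34), as log2 changes of the authors' deposited table. The list was drawn up with results of these libraries known, so it is not independent evidence of its direction. Afp, a target of the postnatal repressor ZHX2, which also acts on Gpc3, rose by 1.03 (SE 0.26), while Zhx2 itself (0.45, SE 0.35) and the repressor gene Zbtb20 (0.75, SE 0.30) did not pass, as log2 changes of the authors' deposited table. Of the 9 measured genes in the list of these repressors and their targets, 2 were higher and 2 lower. Genes that rise in hepatocytes after birth had the opposite balance, with 2 higher and 21 lower of 30 and a median of -1.73. Pluripotency genes had 2 higher of 7 measured, Sall4 (0.69, SE 0.25, by the authors' deposited table) and Esrrb, which had no reads in WT livers.

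**Figure D5:**
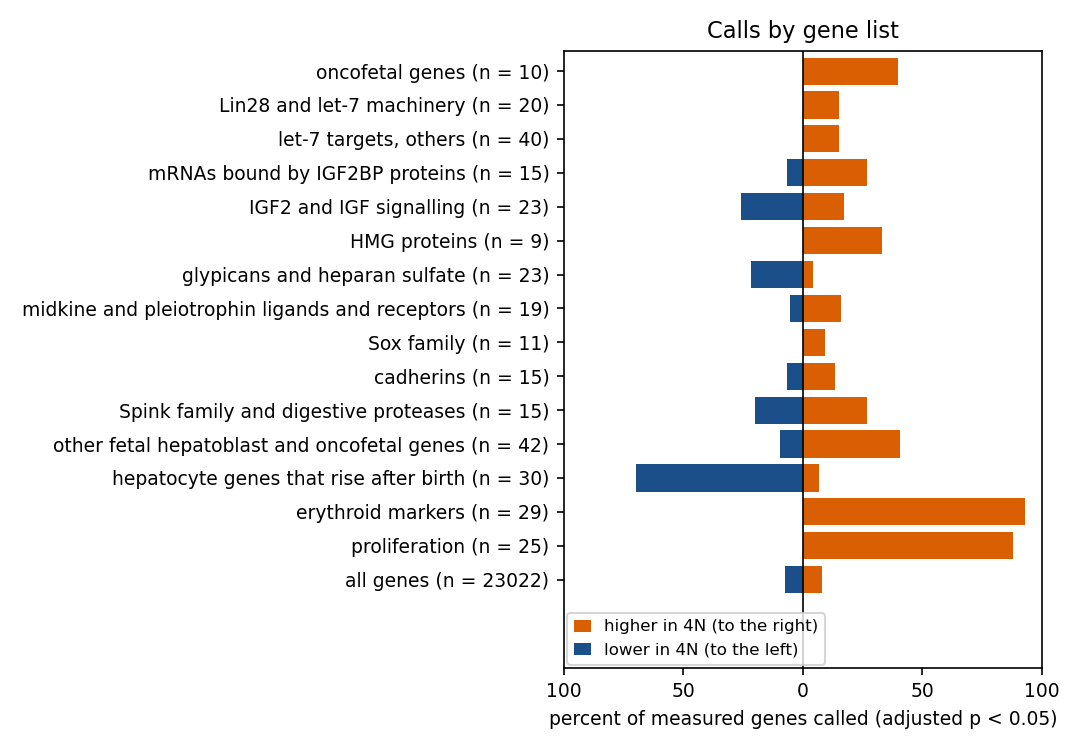
Percent of measured genes called higher (orange, to the right) or lower (blue, to the left) in 4N livers by the authors' test and scaling (adjusted p under 0.05), for the 10 oncofetal genes, related gene lists and all genes listed. The oncofetal genes have 4 of 10 higher, the other fetal genes 17 of 42, and erythroid markers 27 of 29.

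Markers of other cells were examined in the same comparison, and their part in the results above was not tested. Over all genes, 7.94% were called higher and 7.41% lower, or 11.9% and 10.3% of those with a mean of at least 1000. Of 29 erythroid markers 27 rose and none fell, and they took 5.25% of the summed fitted means in 4N livers and 1.62% in WT livers. Proliferation genes rose in 22 of 25 cases, at 0.507% in 4N and 0.269% in WT. Macrophage markers had 6 higher and 1 lower of 16 (0.136% in 4N, 0.0933% in WT), stellate and mesenchymal markers 5 higher and 1 lower of 19 (0.151% in 4N, 0.0957% in WT) and cholangiocyte markers 1 higher and 2 lower of 16 (0.0336% in 4N, 0.036% in WT). Endothelial markers had none higher and 2 lower of 17 (0.0775% in 4N, 0.0803% in WT). Called shares were 6.25% higher and 12.5% lower for cholangiocyte and 0% and 11.8% for endothelial markers, near those of all genes. The fetal liver also uses Lin28b and Hmga2 in blood stem and progenitor cells. Their markers had 3 higher and 1 lower of 20, called shares of 15% and 5% (0.043% of summed fitted means in 4N, 0.0319% in WT). None of the defining markers of these cell types that were measured was at 0 in either group. Hepatocyte transcription factors had 2 higher, Onecut1 and Foxa1, and 5 lower of 21. Smallest in adjusted p among the 5 were Nr1i3 and Nr0b2, at log2 changes of -4.36 and -4.08 by the authors' deposited table. Secreted plasma proteins had none higher and 20 lower of 34 (19.6% in 4N, 21.7% in WT). The hepatocyte marker albumin (Alb) stood at a log2 change of 0.01, with an SE of 0.22 by the authors' deposited table.

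The scaling of the groups mattered for the direction of several members. Recentring on secreted plasma proteins moved every log2 fold change up by 0.67, called 9 of 10 members higher and made 91% of all calls rises, against 51.7% with the authors' scaling. Recentring on erythroid markers moved every value by -1.50, made 2.37% of all calls rises and turned 7 of the 9 positive members negative, all but Igf2bp2 and Spink1. Where p-values came from a t distribution (3 degrees of freedom), 0 of the 10 members and 0 of 23022 genes were called. Even Tat, of the genes that rise after birth, was not, at a Wald statistic of -24.31 by the authors' deposited table. The lack of calls in this setting therefore does not tell members from other genes. In it 2 members, Igf2bp1 and Igf2bp2, and 2513 genes in all had an unadjusted p under 0.05.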

How the data were processed

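Poly(A)-selected RNA of E18.5 mouse livers was sequenced in 3 4N and 2 WT libraries, grouped by their titles, and 1 comparison table of the authors was used. The submitters' processing notes name GRCm39. No aligner or counter is named in the sources used here. The mean signal of a gene is, per the file headers, the authors' normalized count averaged over the libraries. The authors also deposited a log2 fold change for each gene with its standard error, under column names that DESeq2 writes. The deposited Wald statistic is a score, checked to equal the fold change (log2) divided by that error. The deposited p-values were checked to be the 2-sided normal tail of that score, and the adjusted ones their Benjamini-Hochberg adjustment over all 23022 genes, with 0 missing. An error in the authors' size factors would shift all log2 fold changes alike.

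The members and the 24 other gene lists were chosen with earlier results of these data known. Every member was named. In other lists, the text names called genes with the smallest adjusted p, up to 3 per direction, relatives of the members, and the genes it says were chosen after their values were seen. Some further genes, such as cell type markers, receptors and repressors, were named outside this rule. Group means were fitted from the mean, the fold change and the library numbers with equal size factors assumed. They were divided by merged exon length, which GENCODE M21 gave for 22264 genes by symbol. GENCODE M21 and the RefSeq tables describe GRCm38, so their coordinates were used only among themselves. Intervals are 95% normal intervals from the deposited standard errors. The test functions were run on simulated fold changes drawn with the deposited standard errors. This checks the code only, not the authors' calls or standard errors. The 10 alternatives were a t reference, a stricter threshold, a test against a 1.5-fold change, 2 filters and 5 rescalings. Scripts ran in Python 3.11.15 with pandas 2.3.3, numpy 2.4.6 and scipy 1.17.1, and figures were drawn with matplotlib 3.10.9.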

Additional observations from a re-analysis of the deposited data

How the results depend on the processing

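With a t distribution of 3 degrees of freedom behind the p-values, 0 members were called higher. The fold changes themselves do not move in such tests. Igf2bp1 (1.19), Igf2bp2 (2.37), Spink1 (2.29) and Sox4 (0.79) had adjusted p-values of 0.39, 0.37, 0.48 and 0.46 with this t reference. No other gene was called either, so this setting does not tell these 4 from the rest. At an adjusted p under 0.01, 2 members were called higher, and Spink1 (2.29, adjusted p = 0.036) and Sox4 (0.79, adjusted p = 0.014) were not, by the authors' Wald test. Tested against a 1.5-fold change, 1 member was called higher, Igf2bp2, while Igf2bp1 (1.19), Spink1 (2.29) and Sox4 (0.79) had adjusted p-values of 0.17, 0.4 and 1. Over all genes, the calls were 1828 higher and 1705 lower with the authors' test, 1210 and 1164 at the stricter threshold, 521 and 588 against a 1.5-fold change and 0 and 0 with the t distribution.

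Recentring on secreted plasma proteins added 0.67 to every log2 value, called 9 members higher, all but Cdh17, and gave 7982 higher and 789 lower genes in all. Igf2bp3 (0.74), Hmga2 (1.81), Gpc3 (0.97) and Mdk (1.53) passed, and Lin28b changed sign and passed at 0.65. Equal sums over all genes put Lin28b at 0.01. Equal sums without erythroid markers put it at 0.06 and brought Hmga2 past the threshold at 1.22. Recentring on erythroid markers moved every value by -1.50, called 1 member higher and 4 lower, and gave 356 higher and 14657 lower genes. It left Igf2bp1 at -0.31, Igf2bp3 at -1.44, Lin28b at -1.52, Hmga2 at -0.36, Gpc3 at -1.20, Cdh17 at -1.31, Mdk at -0.65 and Sox4 at -0.71, and Spink1 at 0.79 without a call. A constant added to all values moves every gene alike, which is the cause of these changes. The member calls were the same with a mean of at least 50, without genes that have no reads in 1 group, and after recentring on the genes whose mean reached 10000, which moved every value by -0.05.

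No paired analysis was possible because the groups share no replicate numbers and no values of single libraries were used, and leaving out a library was not run for that reason. The depth of the libraries is unknown, and their small number limits the precision of all values.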
